A study of Mus musculus with 18 samples.

Results

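Polyamine synthesis and catabolism was followed through the 10 genes Odc1, Amd1, Srm, Sms, Oaz1, Oaz2, Azin1, Sat1, Paox and Smox, found in the expression table by gene symbol. The rule itself uses no measured value, but the list was drawn up with earlier results of these data known. All 10 were among the 14451 genes of the normalized expression table, all 10 lay above the lowest value in every liver, and all 10 were among the 14449 genes tested. The data were RNA sequencing of polyA RNA from whole livers of wild type male mice aged 8 to 9 weeks, kept in a cycle of 12 h light and 12 h dark. Livers were taken at zeitgeber times (ZT, hours after lights on) 1, 5, 9, 13, 17 and 21, with 3 livers, each from a different mouse, at each time. The strain is not given in the sources used here, no treatment is named, and of the 5 mice in each group the 3 with the best RNA were sequenced. Each value is a linear signal that scales the estimated reads of a gene to a library size the authors set for each liver, and is called the normalized value here.

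Polyamines are small positively charged molecules that bind nucleic acids and are needed for cell growth and for translation. Ornithine decarboxylase makes putrescine from ornithine, and spermidine synthase and spermine synthase lengthen it with aminopropyl groups that come from S-adenosylmethionine once its decarboxylase has acted on it. Antizymes bind ornithine decarboxylase and carry it to the proteasome, the antizyme inhibitor takes up antizyme, and acetylation followed by oxidation turns the longer polyamines back into shorter ones. In rodent liver the decarboxylases are known for fast turnover and for large changes with feeding and regeneration.

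Depth was 10268168 to 23242842 estimated reads on genes per liver (median 12078875), and the values of a liver added up to between 941088 and 1077230. Markers of the cell types of liver were summed over fixed lists. The 5 hepatocyte markers added up to between 69425 and 99624, the 5 Kupffer cell markers to between 85.3 and 228.8, the 5 sinusoidal endothelial markers to between 78.5 and 190.4, the 5 stellate cell markers to between 138.4 and 224.0, and the 4 cholangiocyte markers to between 26.9 and 55.0. Of the blood and lymphocyte list, 4 of 5 markers were in the table (Cd3e was not), with sums of 8.20 to 261.4, and no marker in the table was at the lowest value in every liver. Bulk tissue was measured, so fewer cells of a type and less RNA per cell cannot be told apart. The clock genes Arntl and Per2 had fitted peaks at ZT 21.0 ± 0.343 h and ZT 13.9 ± 0.255 h (SE). In ZT5 replicate 3, the most deeply sequenced liver, Arntl was 1.69 against 5.09 and 5.71 in the other ZT5 livers and Per2 was 25.4 against 14.8 and 14.9, so both genes lay on the side of the ZT9 livers. Over 4878 genes this liver was nonetheless nearest to the ZT5 mean of the other livers, as all 18 livers were to their own time, although those genes had been picked by the 24 h test on the same livers.

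The promoter sequences of the genes that open the pathway, Odc1 and Amd1, are shown because both genes changed over the day, and that of Sms because, of the genes with a promoter entry, it was the only one with a clock-type E-box in its window. Each is the 250 bases before the RefSeq start site on GRCm38.p6, written from 5′ to 3′ on the strand of the gene. Capitals mark GC boxes (GGGCGG, or CCGCCC where the box lies on the other strand) in Odc1 and Amd1 and the E-box CACGTG in Sms. The Odc1 stretch is chr12:17544623-17544872 on the plus strand, the Amd1 stretch is chr10:40302189-40302438 on the minus strand, and the Sms stretch is chrX:157492288-157492537 on the minus strand.
Odc1: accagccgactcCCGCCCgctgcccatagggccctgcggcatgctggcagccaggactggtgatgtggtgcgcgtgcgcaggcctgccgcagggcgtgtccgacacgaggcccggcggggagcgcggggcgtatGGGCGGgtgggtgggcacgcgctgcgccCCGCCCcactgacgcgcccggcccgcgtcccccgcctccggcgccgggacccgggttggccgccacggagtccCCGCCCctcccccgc
Amd1: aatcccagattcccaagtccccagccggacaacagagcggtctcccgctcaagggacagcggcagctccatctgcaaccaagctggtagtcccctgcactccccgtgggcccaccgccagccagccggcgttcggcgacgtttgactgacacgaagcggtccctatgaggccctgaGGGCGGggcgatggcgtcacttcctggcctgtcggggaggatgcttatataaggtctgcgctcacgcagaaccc
Sms: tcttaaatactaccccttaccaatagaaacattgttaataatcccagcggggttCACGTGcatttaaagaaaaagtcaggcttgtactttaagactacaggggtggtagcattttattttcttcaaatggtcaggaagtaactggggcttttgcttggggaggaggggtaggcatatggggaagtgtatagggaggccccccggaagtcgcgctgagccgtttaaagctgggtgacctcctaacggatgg
The 3 stretches differ in base composition. G and C made up 80.0% of the Odc1 stretch, 64.4% of the Amd1 stretch and 47.2% of the Sms stretch, against quartiles of 45.2%, 52.4% and 61.2% over all promoters.

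Motifs were searched on both strands in windows of 250 bases before to 50 bases after each start site, and 8 of the 10 genes had an entry among the 32851 promoters of the RefSeq table. Srm and Azin1 had no entry. The E-box CACGTG, the element bound by the clock activators and by MYC, was in 7.15% of all promoters and among these genes only in Sms, at 1 of its 2 listed start sites, 196 bases before it. The GC box GGGCGG was in 35.7% of all promoters and in 7 of the 8 genes, in all but Oaz1, with 4 matches in Odc1 and 1 in Amd1. Sms had 4 matches at its other start site and none at the one printed above, which was chosen for its E-box. The cyclic AMP response element TGACGTCA was in 1.79% of all promoters and in none of the 8 genes. Its shorter core TGACG was in 20.8% of all promoters and in Odc1, Amd1 and Oaz1. These matches describe the letters of the windows, and the E-boxes known in Odc1 lie in its first intron, outside the window.

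Of the 10 genes, 7 changed over the day with a 24 h curve by limma at a Benjamini–Hochberg adjusted p below 0.05, where 35.3% of all genes tested did. They were 3 of the 4 genes of synthesis (Odc1, Amd1 and Srm), 2 of the 3 antizyme and inhibitor genes (Oaz2 and Azin1) and 2 of the 3 genes of acetylation and oxidation (Sat1 and Paox). Sms, Oaz1 and Smox did not pass. A test of any difference among the 6 time points, with no assumed curve, passed for 6 of the 10 genes against 26.3% of all genes, Oaz2 being the gene that passed only with the curve. The median fitted difference from peak to trough was 0.45 on the log2 scale over the 10 genes and 0.32 over all genes tested. Fitted differences and their standard errors (SE) are on the scale of log2(value + 1), which understates the change of genes with low values.

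**Figure D1:**
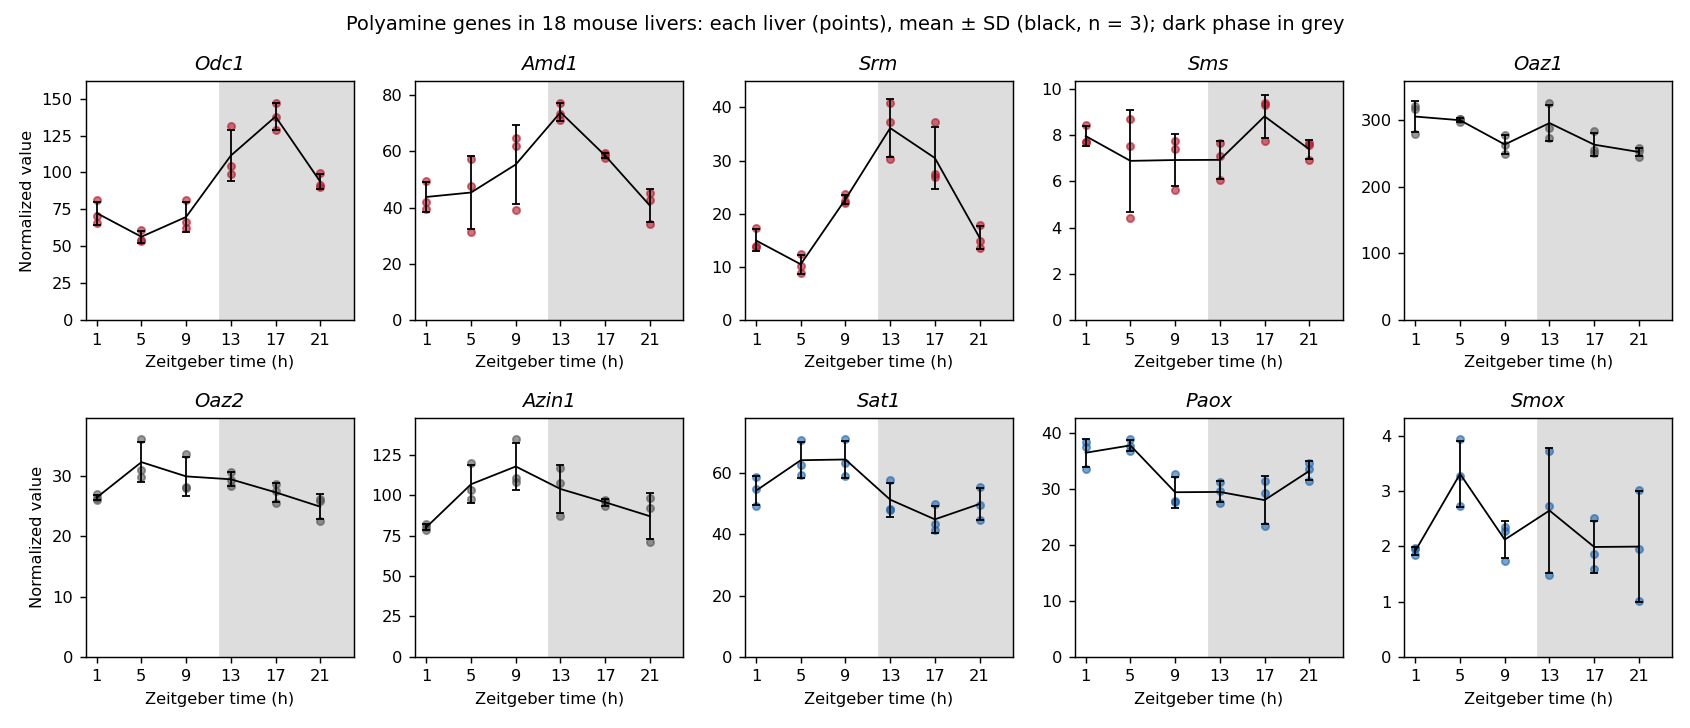
Normalized value of each of the 10 genes (vertical axes, linear and starting at 0) against zeitgeber time in hours, with 1 point per liver, lines through the means of 3 livers and bars of ±1 SD; grey marks the dark phase. Odc1 and Srm were highest in the dark phase with means of 137.9 at ZT17 and 36.1 at ZT13, Sat1 was highest at ZT5 and ZT9, and Oaz1 stayed between 244.8 and 325.5.

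Odc1 encodes ornithine decarboxylase, which makes putrescine and is the first step of the pathway. Its gene lies on chr12:17544794-17551505, plus strand, of GRCm38. In the light phase the normalized values were 66.1, 70.3 and 81.1 at ZT1, 53.6, 54.6 and 61.1 at ZT5, and 62.3, 66.1 and 81.2 at ZT9. In the dark phase they were 98.9, 104 and 131 at ZT13, 129, 138 and 147 at ZT17, and 90.0, 91.7 and 99.6 at ZT21. The livers of the dark phase lay above those of the light phase without overlap, and those of ZT13 and ZT17 overlapped each other. The mean rose from 56.4 ± 4.10 (SD, n = 3) at ZT5 to 137.9 ± 9.26 at ZT17, a ratio of 2.44. The fitted difference from peak to trough was 1.2 ± 0.11 on the log2 scale with a peak at ZT 16.7 ± 0.341 h (limma, adjusted p = 1.3e-06), and 97.0% of all genes tested had a smaller one. The value rested on 668 to 2007 estimated reads per liver. Among the 50-base windows of the Odc1 exons, 24.3% also match other genes, most often Gm7993 (11.7%).

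Srm encodes spermidine synthase, which makes spermidine from putrescine, and it had the largest fitted difference of the 10 genes. The gene lies on chr4:148591503-148594993, plus strand. At ZT1, ZT5 and ZT9 its livers had 13.7, 13.9 and 17.3, then 8.79, 10.3 and 12.4, then 22.0, 22.4 and 23.7. At ZT13, ZT17 and ZT21 they had 30.2, 37.2 and 40.9, then 26.8, 27.4 and 37.2, then 13.6, 15 and 17.9. The ZT5 livers were the lowest of all and the ZT13 and ZT17 livers the highest, with the ZT9 livers between and no overlap among these 3 levels. The mean went from 10.5 ± 1.83 at ZT5 to 36.1 ± 5.39 at ZT13, a ratio of 3.44, and the fitted difference was 1.56 ± 0.18 with a peak at ZT 14.3 ± 0.434 h (limma, adjusted p = 1.56e-05). A smaller fitted difference was found in 98.6% of all genes tested, and the values rested on 126 to 498 estimated reads.

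Amd1 encodes S-adenosylmethionine decarboxylase, which supplies the aminopropyl groups for spermidine and spermine. The gene lies on chr10:40287458-40302186, minus strand. The livers had 39.6, 42.1 and 49.6 at ZT1, 31.2, 47.5 and 57.3 at ZT5, and 39.2, 61.8 and 64.8 at ZT9. At ZT13 they had 71.0, 73.3 and 77.2, at ZT17 57.4, 58.6 and 59.3, and at ZT21 34.2, 42.7 and 45.2. The 3 livers of ZT13 lay above all others, while the ZT5 livers covered most of the range found at the remaining times, and ZT5 replicate 3 was the highest at ZT5. The fitted difference was 0.77 ± 0.17 with a peak at ZT 13.0 ± 0.835 h (limma, adjusted p = 0.00562), and without ZT5 replicate 3 it was 0.82 (adjusted p = 0.00384). Of the 50-base windows of the Amd1 exons, 78.1% also match elsewhere, 76.7% in the near-identical Amd2, so the split of reads between the copies is uncertain. The table gave Amd2 at most 2.25 in any liver, against 31.2 or more for Amd1.

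Sms encodes spermine synthase, which makes spermine, and it gave no called change. Its gene lies on chrX:157443855-157492287, minus strand. The value ran from 4.43 to 9.40 over the 18 livers on 59.6 to 138 estimated reads, with 7.74, 9.30 and 9.40 at ZT17, where the mean was highest, and 4.43, 7.51 and 8.71 at ZT5, where it was lowest. These livers overlapped, and the fitted difference of 0.26 ± 0.14 did not pass (limma, adjusted p = 0.307). The lowest value was that of ZT5 replicate 3. Among the 50-base windows of the Sms exons, 17.5% also match other genes, most often Sms-ps (17.4%). Within synthesis, Srm and Sms make successive steps of aminopropyl transfer, and only the first of the pair passed the test, although the difference between the 2 genes was not tested.

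Oaz1 encodes antizyme 1, the main brake on ornithine decarboxylase, whose protein is made only when ribosomes shift frame in response to polyamines. Its gene lies on chr10:80826656-80829290, plus strand. Its normalized values were the highest of the 10 genes, between 244.8 and 325.5, with a fitted difference of 0.16 ± 0.09 (limma, adjusted p = 0.328). The test among the 6 time points gave an adjusted p of 0.0839. The livers of ZT1, where the mean was highest, had 278.4, 316 and 320.0. Those of ZT21, where it was lowest, had 244.8, 252.6 and 258. They did not overlap, but these times were picked by their means, and the step between them did not pass (limma, adjusted p = 0.364). A pseudocount of 5 and a fit with a variance trend each brought the adjusted p of the test among the 6 time points below 0.05. Among the 50-base windows of the Oaz1 exons, 21.0% also match other genes, most often Oaz1-ps (20.1%).

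Oaz2 encodes a second antizyme that also binds ornithine decarboxylase, on chr9:65668001-65690300, plus strand. The livers had 26, 26.3 and 27 at ZT1, 29.9, 31 and 36.1 at ZT5, and 28, 28.2 and 33.7 at ZT9. Later they had 28.4, 29.4 and 30.7 at ZT13, 25.6, 27.6 and 28.8 at ZT17, and 22.6, 25.9 and 26.3 at ZT21. The ZT5 livers lay above those of ZT1, ZT17 and ZT21. The fitted difference was 0.30 ± 0.08 with a peak at ZT 8.40 ± 1.06 h (limma, adjusted p = 0.0254). This call was lost without ZT9 replicate 2 (adjusted p = 0.0610) and without ZT21 replicate 2 (adjusted p = 0.0661).

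Azin1 encodes the antizyme inhibitor, a relative of ornithine decarboxylase without its activity that frees the enzyme from antizyme. The gene lies on chr15:38487427-38519266, minus strand, and its exons overlap the antisense gene Gm49077 over 358 bases, whose reads cannot be told apart without strand. The livers had 78.7, 80.2 and 82.1 at ZT1, 97.6, 103.4 and 119.9 at ZT5, and 108.6, 110.5 and 134.7 at ZT9. After that they had 87.4, 107.6 and 117 at ZT13, 93.3, 96.7 and 97.3 at ZT17, and 71.1, 92.1 and 98.1 at ZT21. The ZT1 livers lay below those of ZT5, ZT9, ZT13 and ZT17 without overlap, and ZT5 replicate 3 was the highest of its group. The mean went from 80.3 ± 1.67 at ZT1 to 117.9 ± 14.5 at ZT9, and the fitted difference was 0.48 ± 0.11 with a peak at ZT 9.96 ± 0.886 h (limma, adjusted p = 0.00852).

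Sat1 encodes spermidine/spermine acetyltransferase, the first step of polyamine breakdown. The gene lies on chrX:155213132-155216449, minus strand. The livers had 49.4, 54.7 and 58.8 at ZT1, 59.5, 62.5 and 70.7 at ZT5, and 59.3, 63.2 and 71.1 at ZT9. They had 48.0, 48.3 and 57.8 at ZT13, 41.3, 43.5 and 49.97 at ZT17, and 44.8, 49.6 and 55.5 at ZT21. The 6 livers of ZT5 and ZT9 lay above the other 12. The mean fell from 64.5 ± 6.0 at ZT9 to 44.9 ± 4.50 at ZT17, and the fitted difference was 0.51 ± 0.09 with a peak at ZT 6.24 ± 0.70 h (limma, adjusted p = 0.00144). Sat1 is also expressed in cells other than hepatocytes, and the summed Kupffer cell markers were 168.8 to 228.8 at ZT5 and 175.8 to 214.7 at ZT9 against 85.3 to 199.6 at ZT17, and the endothelial markers 151.6 to 190.4, 133.5 to 171.2 and 78.5 to 152.5. At ZT13, where Sat1 was at 48.0 to 57.8, the Kupffer cell sum was 159.8 to 212.2 and the endothelial sum 112.5 to 157.5. At ZT21, where Sat1 was at 44.8 to 55.5, these sums were 86.0 to 133.3 and 81.8 to 128.3. At ZT1, where Sat1 was at 49.4 to 58.8, they were 98.0 to 203.2 and 102.1 to 158.2. The part of these cell types in the Sat1 values was not tested.

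Paox encodes the peroxisomal oxidase that acts on the acetylated polyamines Sat1 makes. The gene lies on chr7:140115799-140137224, plus strand, it overlaps Echs1 of the other strand over 142 exon bases, and 25.2% of its 50-base windows also match Gm19680. The livers had 33.6, 37.4 and 38.3 at ZT1, 36.8, 37.6 and 38.8 at ZT5, and 27.7, 27.9 and 32.6 at ZT9. They had 27.5, 29.6 and 31.2 at ZT13, 23.3, 29.2 and 31.5 at ZT17, and 31.4, 33.5 and 34.7 at ZT21. The livers of ZT1 and ZT5 lay above those of ZT9, ZT13 and ZT17 without overlap. The mean was 37.8 ± 1.00 at ZT5 and 28 ± 4.22 at ZT17, and the fitted difference was 0.43 ± 0.09 with a peak at ZT 2.36 ± 0.813 h (limma, adjusted p = 0.00465).

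Smox encodes spermine oxidase, which turns spermine back into spermidine without acetylation, on chr2:131491496-131525922, plus strand. Its normalized values, not divided by gene length, were the lowest of the 10 genes, between 1.01 and 3.93. They rested on only 12 to 65 estimated reads per liver. The livers had 2.73, 3.27 and 3.93 at ZT5, where the mean was highest, and 1.83, 1.96 and 1.96 at ZT1, where it was lowest. These livers did not overlap, while those of ZT13 (1.47 to 3.73) and ZT21 (1.01 to 3.02) covered both levels. The test among the 6 time points did not pass either (adjusted p = 0.291). The fitted difference was 0.37 ± 0.20 (limma, adjusted p = 0.316).

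For a rough comparison of mRNA levels between genes, normalized values were divided by the summed length of each gene's exons. This length counts every base that is exon in any annotated transcript, and it can exceed the length of the main mRNA. It was 2558 bases in Oaz1 and 2774 bases in Sat1, most of the span of each gene. Levels may thus be understated by differing amounts, and their order is approximate. They are given per kilobase, averaged over the 18 livers. Oaz1 led with 109.3 and a range of 95.7 to 127.3, apart from the rest. Odc1 followed with 26.5, Sat1 with 19.8, Azin1 with 15.8, Amd1 with 14.9, Srm with 13.6, Oaz2 with 9.50 and Paox with 6.60, and the ranges over the livers of each neighbouring pair in that order overlapped. Sms with 1.25 lay below Paox without overlap, and Smox with 0.598 overlapped Sms.

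The fitted peaks of the 7 called genes fell at different times of day. Their order was Paox, Sat1, Oaz2, Azin1, Amd1, Srm and Odc1, from breakdown in the light phase to synthesis in the dark phase. The peak of Amd1, at ZT 13.0 ± 0.835 h (SE), lay near lights off. Neighbouring peaks were compared by their difference with a 95% interval from their SEs, which treats the genes as independent although they were measured in the same livers. The pairs were set by the fitted order itself, so each difference is above 0 by construction. The intervals were not corrected for the number of pairs. Paox preceded Sat1 by 3.88 h (1.78 to 5.98 h), Azin1 preceded Amd1 by 3.01 h (0.629 to 5.4 h) and Srm preceded Odc1 by 2.34 h (1.26 to 3.43 h). The intervals included 0 for Sat1 and Oaz2 (2.16 h, -0.32 to 4.64 h), for Oaz2 and Azin1 (1.56 h, -1.14 to 4.26 h) and for Amd1 and Srm (1.35 h, -0.50 to 3.19 h). Thus Srm, the second enzyme of synthesis, peaked before Odc1, the first, and the peak of Amd1 could not be told from that of Srm. For reference, Per2 peaked at ZT 13.9 and Arntl at ZT 21.0.

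**Figure D2:**
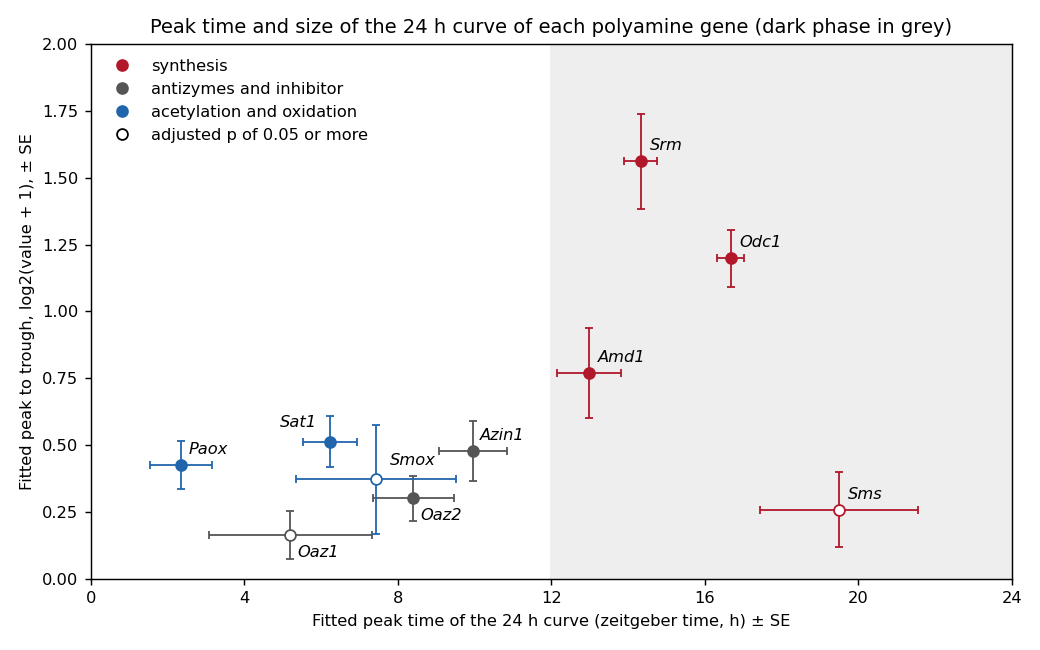
Fitted peak time (horizontal axis, ZT in hours) against fitted difference from peak to trough (vertical axis, log2) of the 10 genes, with bars of ±1 SE, colours for synthesis, antizymes and inhibitor, and acetylation and oxidation, and open points for genes with an adjusted p of 0.05 or more by limma. Grey marks the dark phase. Srm (1.56) and Odc1 (1.2) stand above the others, and the called genes of breakdown, Paox and Sat1, peaked before ZT 7 while the called genes of synthesis peaked at ZT 13.0 or later.

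The steps between neighbouring time points showed when the changes fell. Of 60 comparisons (10 genes by 6 steps), 5 passed, all of them in Odc1 and Srm, and neighbouring steps share the livers of 1 time point. From ZT5 to ZT9 Srm rose by 1.06 ± 0.16 on the log2 scale (limma, adjusted p = 0.00208), in a step where 0.637% of all genes rose. From ZT9 to ZT13, across lights off, Odc1 rose by 0.66 ± 0.12 (adjusted p = 0.00398) and Srm by 0.64 ± 0.16 (adjusted p = 0.0185), in a step where 4.64% of all genes rose. From ZT17 to ZT21 Odc1 fell by 0.55 ± 0.12 (adjusted p = 0.0426) and Srm fell by 0.93 ± 0.16 (adjusted p = 0.0103), where 0.568% of all genes fell. In the other steps and directions none of the 10 genes was called. The shares of all genes were 2.53% higher and 2.36% lower from ZT1 to ZT5, 0.9% lower from ZT5 to ZT9, 4.6% lower from ZT9 to ZT13, 0.671% higher and 0.533% lower from ZT13 to ZT17, 0.941% higher from ZT17 to ZT21, and 0.0277% higher and 0.104% lower from ZT21 to ZT1. No step of the other 8 genes passed: the step of lowest adjusted p among them was that of Sat1 from ZT9 to ZT13, -0.32 ± 0.12 (adjusted p = 0.0995).

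The last step of Odc1 and the middle step of Srm were close to the threshold. The fall of Odc1 from ZT17 to ZT21 did not pass when any 1 of 10 livers was left out, namely ZT1 replicate 3, ZT5 replicate 2 or 3, ZT9 replicate 3 or any liver of ZT17 or ZT21, with adjusted p-values up to 0.139. The rise of Srm from ZT9 to ZT13 did not pass without ZT9 replicate 1 (adjusted p = 0.0505) or 2 (0.0654), or without ZT13 replicate 1 (0.0846) or 3 (0.0541).

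**Figure D3:**
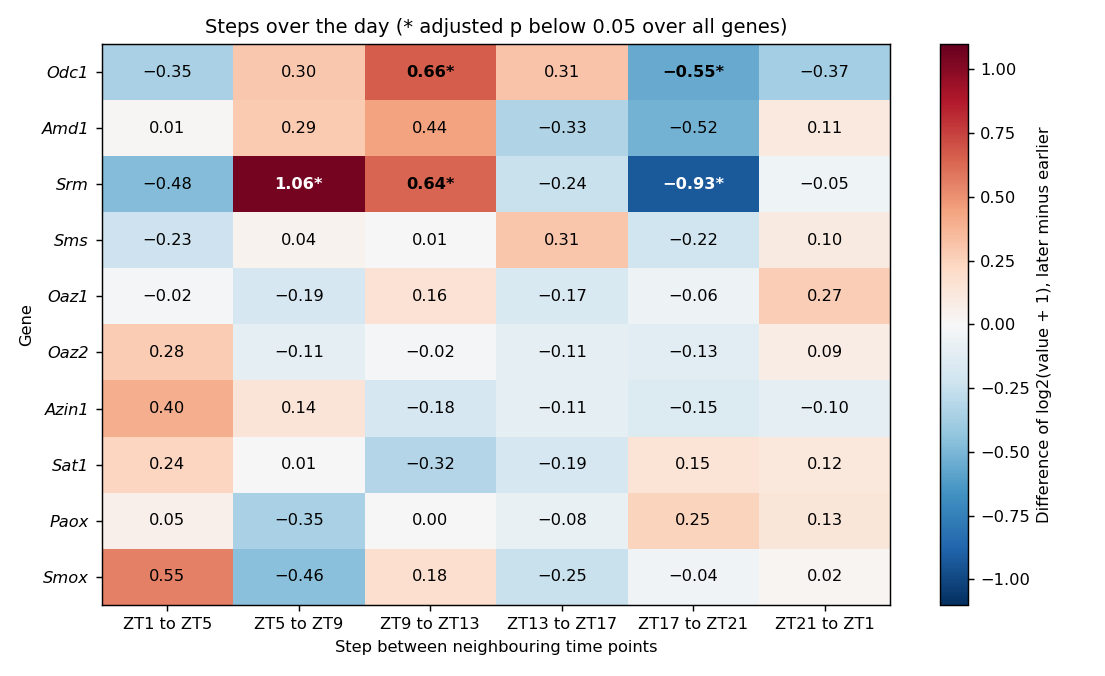
Heat map of the 10 genes (rows) by the 6 steps between neighbouring time points (columns), where colour and printed number give the difference of log2(value + 1), later minus earlier, and an asterisk marks an adjusted p below 0.05 by limma over all genes. The 5 asterisks are on the rises of Srm at ZT5 to ZT9 (1.06) and ZT9 to ZT13 (0.64), the rise of Odc1 at ZT9 to ZT13 (0.66) and the falls of Odc1 (-0.55) and Srm (-0.93) at ZT17 to ZT21.

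Rhythm algorithms that do not rest on limma, rewritten here, called fewer of the genes. JTK, a rank test against cosine orders with periods of 20, 24 and 28 h, called 3 of the 10 at a q-value below 0.05, against 14% of all genes: Odc1 (q = 0.00474), Srm (q = 0.0152) and Sat1 (q = 0.0435). MC, which joins JTK with the Lomb–Scargle periodogram, called 5 of the 10, against 18.2% of all genes, adding Paox (q = 0.0336) and Amd1 (q = 0.0346). The cosine curve of CircaN, a non-linear least squares fit with a free period, was held to a q-value under 0.05 with R-squared at or above 0.7. It called Odc1 (R-squared 0.890), Srm (0.890) and Sat1 (0.728), against 11.2% of all genes. Its period test asks only whether a period kept between 20 and 28 h differs from 0. The highest CircaN q-value among the 10 genes was 0.0102, in Smox with R-squared 0.152. The R-squared limit thus decided which of the 10 were called. All 3 algorithms thus called Odc1, Srm and Sat1, and none called Sms, Oaz1, Oaz2, Azin1 or Smox at these settings. Over all genes the rewritten forms called 2018 (JTK), 2627 (MC) and 1621 (CircaN, cosine only). The paper reported more genes for each algorithm in its own liver dataset, which these livers are. The counts here are therefore those of the rewritten forms, and the reason for the difference was not tested. With livers rescaled to the same sum, Oaz2 was called by JTK (q = 0.0346) and MC (q = 0.0234). With time points of equal cosine joined, Azin1 was called by JTK (q = 0.0375) and MC (q = 0.0358). The JTK call of Sat1 was lost for 13 of the 18 livers when each was dropped in turn, and held without ZT1 replicate 3, ZT17 replicate 2 or any 1 liver of ZT21. Its q-value in these fits was 0.0428 to 0.129. The MC calls of Paox and Amd1 were lost for 13 and 8 of the 18 livers.

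A second peak within the day was asked of each gene by 12 h terms added to the 24 h curve. None of the 10 genes passed (limma, adjusted p below 0.05) against 0.872% of all genes. At an unadjusted p below 0.05 there were 2, Oaz1 (adjusted p = 0.229) and Srm (adjusted p = 0.344), against 12.6% of all genes. The algorithms above looked only for periods of 20 to 28 h.

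Ratios within each liver set the opposing genes side by side. They are ratios of normalized values, not corrected for gene length, so only their change between times can be read, and they are given as a description. Odc1 to Oaz1 was lowest at ZT5 (0.189 ± 0.0155, SD, n = 3) and highest at ZT17 (0.528 ± 0.0673). Odc1 to Sat1 went from 0.880 ± 0.0324 at ZT5 to 3.08 ± 0.114 at ZT17, and in both ratios the livers of these times did not overlap. Azin1 to Oaz1, the inhibitor against its antizyme, went from 0.264 ± 0.0166 at ZT1 to 0.451 ± 0.0775 at ZT9. Srm to Sms went from 1.72 ± 0.941 at ZT5 to 5.25 ± 0.948 at ZT13, and the wide spread at ZT5 came from replicate 3 with 2.80 against 1.17 and 1.18.

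**Figure D4:**
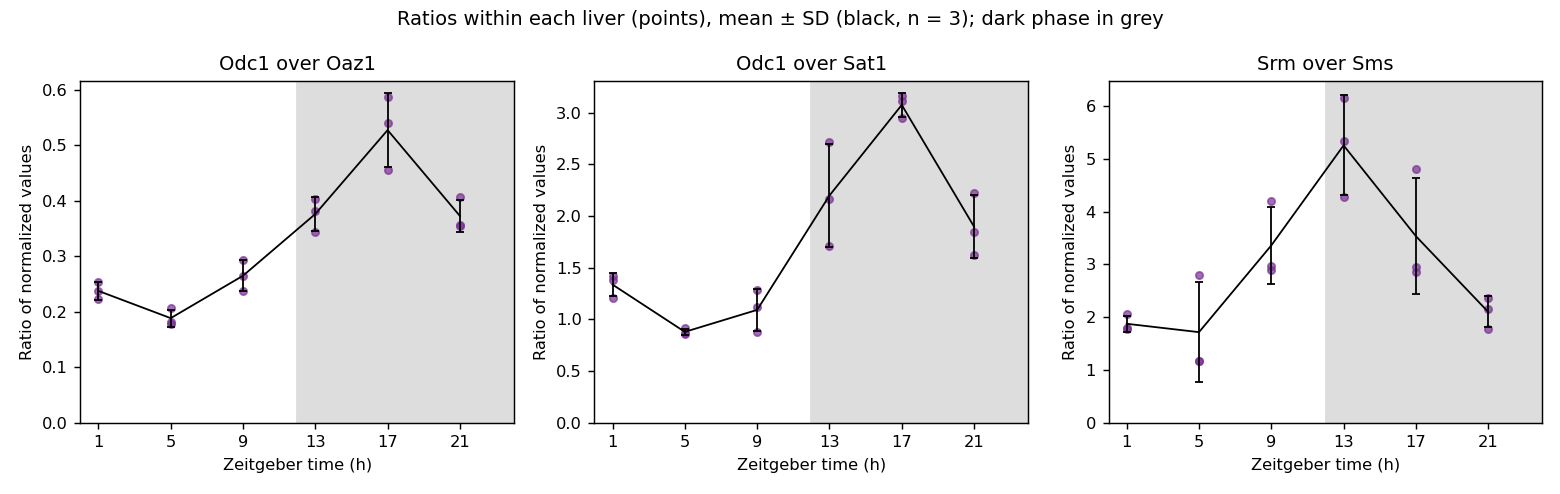
Ratios of normalized values within each liver (vertical axes, linear and starting at 0) against zeitgeber time in hours, 1 point per liver with lines through the means of 3 livers and bars of ±1 SD. Grey marks the dark phase. Odc1 over Sat1 went from 0.880 at ZT5 to 3.08 at ZT17, Odc1 over Oaz1 from 0.189 to 0.528 between the same times, and Srm over Sms was highest at ZT13 (5.25).

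Over the 18 livers, which share the sampling times, Srm and Odc1 had a Pearson r of 0.754 on the log2 scale and Srm and Amd1 one of 0.727, given as a description. The pairs of a breakdown gene with a synthesis gene had negative r of varied size. For Sat1 it was -0.760 with Odc1, -0.434 with Srm, -0.270 with Amd1 and -0.270 with Sms. For Paox it was -0.697 with Srm, -0.636 with Odc1, -0.456 with Amd1 and -0.331 with Sms, while for Smox it lay between -0.18 and -0.06 with all 4. Among 12480 genes with a mean value of at least 1, the patterns most like that of Odc1 by r over the 18 livers were Tmem37 (0.962), Fmo5 (0.941), a flavin-containing monooxygenase, and Hspe1 (0.929), a mitochondrial chaperonin subunit. Those most like Srm were Preb (0.946), Gde1 (0.936) and Eif4a1 (0.931), a translation initiation helicase. Those most like Sat1 were Gm16548 (0.890), Wdr6 (0.882) and Rprd2 (0.881).

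Genes around the pathway were taken from lists of 28 genes, of which 25 were in the table (Arg2, Eif5a2 and Oaz3 were not). Of the 25, 11 passed the 24 h test of limma against 35.3% of all genes, and their median fitted difference was 0.38 against 0.32 over all genes. The lists differed in their counts. All 3 genes of S-adenosylmethionine supply, which feeds Amd1, passed: Mat1a, the liver form of the synthetase, with a mean from 1098 ± 120 at ZT1 to 2586 ± 225 at ZT13 (fitted difference 0.86 ± 0.17, peak ZT 13.0, adjusted p = 0.00346), Mat2a (0.50 ± 0.11, peak ZT 12.4, adjusted p = 0.00469) and the regulatory subunit Mat2b (0.44 ± 0.12, peak ZT 4.21, adjusted p = 0.0300). The peaks of Mat1a and Mat2a stood beside that of Amd1 at ZT 13.0. The mean of Mat2b was highest at ZT9 (35.4 ± 0.895) and lowest at ZT13 (22.6 ± 2.23), so its fitted peak does not mark its highest time point. JTK, MC and CircaN called none of these 3 genes, while all 3 algorithms called Eif5a and Slc18b1 of the lists below.

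All 3 measured genes of hypusine, the spermidine-derived residue of the translation factor eIF5A, also passed the 24 h test. Eif5a, the factor itself, had 249.6 ± 3.66 at ZT5 and 315.8 ± 3.51 at ZT17 (fitted difference 0.33 ± 0.07, peak ZT 16.0, adjusted p = 0.00361). Dohh and Dhps, the enzymes that make hypusine, had fitted differences of 0.43 ± 0.10 (peak ZT 13.5, adjusted p = 0.00824) and 0.38 ± 0.09 (peak ZT 14, adjusted p = 0.00910). Dhps did not pass the test among the 6 time points (limma, adjusted p = 0.0668). All 3 fitted peaks lay in the dark phase, as did those of Srm and Odc1. Their SEs were 0.784 h (Eif5a), 0.881 h (Dohh) and 0.894 h (Dhps), and the peak of Dohh, like that of Amd1, lay near lights off.

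Of 7 genes listed for polyamine transport 3 passed the 24 h test. Slc18b1, a vesicular polyamine carrier, went from 3.19 ± 0.493 at ZT9 to 6.97 ± 0.946 at ZT21 (adjusted p = 0.00011). The others were Slc47a1, an exporter of organic cations (0.48 ± 0.11, adjusted p = 0.0101), and Slc3a2, the heavy chain of amino acid transporters (0.28 ± 0.08, adjusted p = 0.0410). Slc3a2 did not pass the test among the 6 time points (limma, adjusted p = 0.140). Of 5 genes that salvage methylthioadenosine, the by-product of Srm and Sms, only Mtap passed, the phosphorylase that takes the first step (0.48 ± 0.11, peak ZT 19.8, adjusted p = 0.00652). Of 3 measured paralogs only Azin2, a second antizyme inhibitor, passed, with a low level of 2.14 ± 0.584 at ZT5 and 0.469 ± 0.142 at ZT17 (fitted difference 1.09 ± 0.24, adjusted p = 0.00556). None of the 4 measured genes of ornithine supply and use passed the 24 h test. Oat, named after its values were seen, passed the test among the 6 time points (adjusted p = 0.0106), with 618.1 ± 188.1 at ZT5 and 307.9 ± 77.3 at ZT21. Its ZT5 livers had 450.9, 581.6 and 821.8, the highest being ZT5 replicate 3, and its ZT21 livers had 222.4, 328.3 and 373.0.

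**Figure D5:**
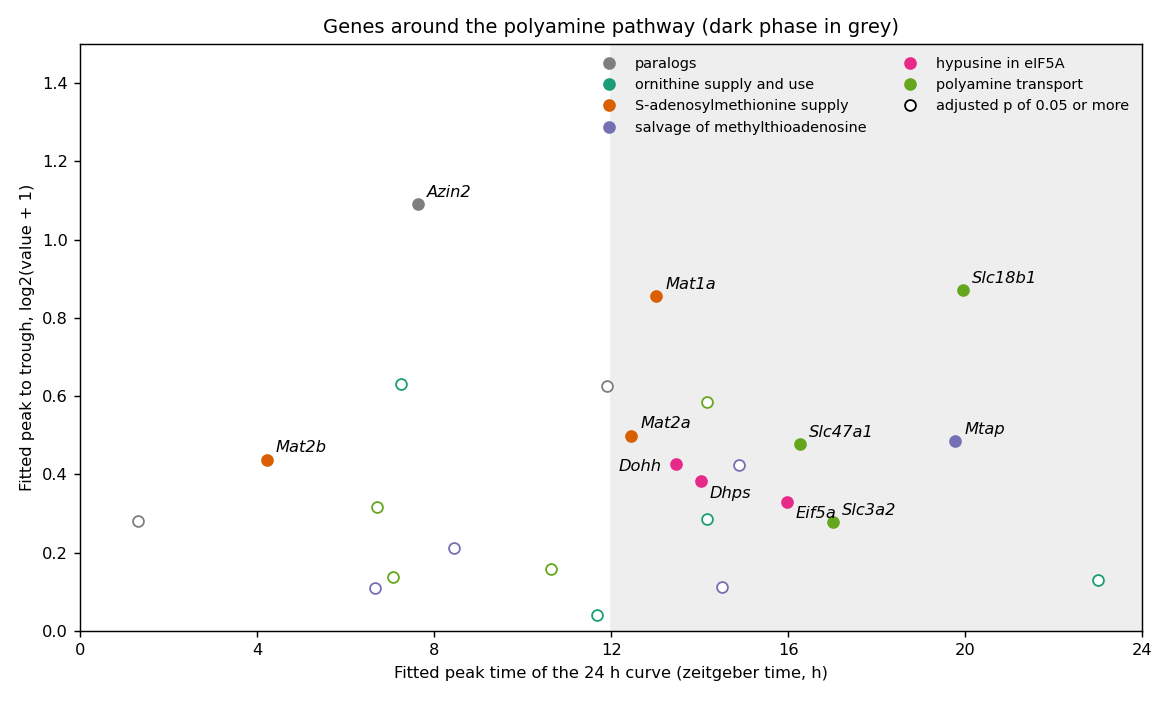
Fitted peak time (horizontal axis, ZT in hours, dark phase in grey) against fitted difference from peak to trough (vertical axis, log2(value + 1)) of the 25 related genes in the table, coloured by list and without error bars, with filled and named points for the 11 that passed the 24 h test of limma and open points for the rest. Azin2 (1.09), Slc18b1 (0.87) and Mat1a (0.86) stand highest, and the peaks of Mat1a, Mat2a, Dohh, Dhps and Eif5a lie between ZT 12.4 and ZT 16.0.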

How the data were processed

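Per the labels, libraries were made from polyA RNA of 18 livers and processed with CASAVA 1.8.2, cutadapt and RSEM 1.2.20 on GRCm38. RSEM divides reads that match several genes, so its counts are estimates, and the methods state that these were normalized with limma. The signal in the deposited table was made by the authors from these estimates. Its values behave as an estimated count plus 0.5, divided by an effective library size. Reads per liver were worked out from the lowest value, which stands for 0 reads. Between 39.1% and 47.9% of values came out whole (within 0.005), so no test for whole counts was used. Kit strandedness is not given in the sources used here. No column held a sample outside the labels, and no 2 livers held identical values.

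Of 14451 genes, 2 that never rose above the lowest value were left out. limma 3.58.1 (R 4.3.3) fitted log2(value + 1) over all 18 livers with cosine and sine terms of 24 h, with added 12 h terms, and with 6 time point means. JTK (18 cosine orders, exact null, statistics between whole numbers given the mean of the neighbouring tails, which other software may treat differently), Lomb–Scargle (72 test frequencies, 15 independent) and the cosine curve of CircaN, without its random effect, were written in Python 3.11.15 with numpy 2.4.6 and scipy 1.17.1. p-values were adjusted by Benjamini–Hochberg over 14449 genes, threshold 0.05. The limma fits and the rhythm algorithms were tested on simulated data, and the other steps were not. Each liver was 1 mouse, and the labels name no batch. Gene positions are from GENCODE M21 on GRCm38, and promoters from RefSeq on GRCm38.p6. In 13 rows a symbol repeats that of another row. The labels set the groups. Members, gene lists and tests were chosen with earlier results of these data known. The named genes were all 10 members, the clock genes Arntl and Per2, at most 3 called genes of each related list, and the 3 genes most like each member called by limma and JTK. Alternatives were other pseudocounts (0.1 and 5), a mean value of at least 1, rescaling, a variance trend, algorithm settings and leaving out each liver.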

Additional observations from a re-analysis of the deposited data

How the results depend on the processing

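The limma counts among the 10 genes stayed within 1.5 times of the main ones, and those of JTK and MC did not. The 24 h test of limma called 7 under every other setting and 6 to 7 when 1 liver was left out, the test among 6 time points 5 to 8 and 4 to 6 against 6, the steps 4 to 6 and 4 to 5 against 5, and the related genes 11 to 13 and 9 to 14 against 11. JTK called 6 in place of 3 when time points of equal cosine were joined into 1 group, which adds Amd1, Azin1 and Paox, 4 with livers rescaled to the same sum, which adds Oaz2, and 2 to 3 with 1 liver left out. MC called 5 to 6 under other settings and 2 to 5 with 1 liver left out. It called only Odc1 and Srm without ZT17 replicate 1 or 3, and 3 genes (Odc1, Srm and Sat1) without ZT9 replicate 3 or ZT13 replicate 2. CircaN called 3, and 2 to 4 with 1 liver left out. The 12 h test called 0 throughout. None of the 5 called steps changed sign. Odc1, Amd1, Srm, Azin1, Sat1 and Paox kept their 24 h limma call in every fit run. The fall of Odc1 from ZT17 to ZT21 did not pass with livers rescaled to the same sum (adjusted p = 0.0748) or a pseudocount of 0.1 (0.0521), the JTK call of Sat1 did not pass with median-ratio rescaling (q = 0.0682), and the MC call of Paox did not pass with the same sum (q = 0.0597). The causes were not tested. The test among 6 time points lost Azin1 with a pseudocount of 0.1 and in 13 of the 18 fits without 1 liver, Amd1 without any 1 liver of ZT13, and Paox without ZT5 replicate 3, and it called 4 genes without ZT5 replicate 3 or ZT13 replicate 2. No paired analysis was possible because each liver came from a different mouse and the labels name no batch or pairing. The replicate numbers used here follow accession order and only name the livers.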
